A study of Mus musculus with 20 samples.

Results

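Heat shock proteins and their DnaJ cochaperones were followed in bulk RNA from mouse hippocampus and amygdala at postnatal day 21. Members were the genes whose symbol begins with Dnaj, or with Hsp followed by a family letter or a digit, except Hspg2 and Hspbap1, and that reached at least 1 TPM (a transcript level scaled to gene length and to the library total) in at least 3 of the 10 libraries of either tissue. Of 23412 genes in the tables, 73 symbols matched and 65 reached that level, 25 of them Hsp genes and 40 DnaJ genes. All 65 passed in the hippocampus and 64 in the amygdala, since Dnajb13, a gene of motile cilia, reached 1 TPM in 7 hippocampal libraries and in 1 amygdala library. Just inside the level lay Hspb2, Dnajb13 and Dnajb3, with highest values of 3.28, 3.33 and 4.76 TPM, and just outside it lay Dnajc5b, Hspa1l and Dnajc22, with highest values of 0.68, 0.64 and 0.46 TPM. The other 5 matching symbols, Dnajb7, Dnajb8, Dnajc5g, Hspb7 and Hspb9, were at or near 0 in every library.

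From each tissue came 4 libraries labelled control, 3 labelled NCoR1-KO and 3 labelled SMRT-KO, 20 in all, prepared with an mRNA kit. NCoR1 and SMRT are related corepressors that nuclear receptors recruit to silence target genes. Floxed NCoR1 or SMRT alleles were removed by Snap25-IRES2-cre, a driver active across neurons, so glia, vessels and other non-neuronal cells of the tissue still carried the intact genes. The labels call the remaining group control and do not say whether those mice carried the Cre, a floxed allele or neither. Nor do they state that replicates were separate animals, so every p-value below measures the spread between these libraries, which may be technical.

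Cytosolic Hsp70 proteins bind exposed stretches of unfolded proteins in a cycle of ATP hydrolysis. DnaJ proteins, also called Hsp40, deliver clients and start hydrolysis through their J domain, while Hsp110 proteins and Hspbp1 help to release the nucleotide. Hsp90 finishes the folding of kinases and of steroid receptors, small heat shock proteins hold aggregating clients, and the Hspd1 and Hspe1 chaperonin folds proteins in mitochondria. Stress induces the cytosolic and mitochondrial set through heat shock factor Hsf1, and unfolded protein in the endoplasmic reticulum (ER) induces Hspa5, Hsp90b1 and their DnaJ partners. Neurons also use Hspa8 with Dnajc6 to strip clathrin from vesicles and with Dnajc5 to keep synaptic proteins folded.

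The promoters of some members carry letters that these stress factors are known to read. These letters are shown as background, and their part in the values below was not tested. RefSeq start sites on GRCm38.p6 were found for 53 of the 65 members, each with a window of 250 bases before to 50 after the start, and both strands were searched. The 3-unit heat shock element TTCNNGAANNTTC was in the windows of 4 of those 53 genes (7.55%, against 0.662% of 27025 genes), namely Dnajb6, Hspd1, Hspe1 and Hsph1. Hspd1 and Hspe1 are divergent neighbours whose windows overlap and hold the same stretch, so the 4 genes have 3 separate stretches. The pair of units GAANNTTC, which the longer motif contains, was in 13 members (24.5%, against 9.04%), and TTCNNGAA was in 6 (11.3%, against 9.6%). The ER stress element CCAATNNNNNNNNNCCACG was in 3 members, Hspa5, Hsp90b1 and Dnajc3 (5.66%, against 0.137%). A match describes the letters and does not show a bound factor. In the sequences below, read 5′ to 3′ on the strand of the gene, capitals mark the matched letters, including overlapping pairs of units.
Hspe1, chr1:55088039-55088096 (+): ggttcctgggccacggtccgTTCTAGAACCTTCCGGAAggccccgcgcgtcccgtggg
Dnajb6, chr5:29735832-29735884 (+): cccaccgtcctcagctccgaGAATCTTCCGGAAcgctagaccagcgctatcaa
Hspa1a, chr17:34972233-34972280 (−): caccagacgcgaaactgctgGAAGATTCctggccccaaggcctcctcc
Hspa1b, chr17:34959315-34959362 (−): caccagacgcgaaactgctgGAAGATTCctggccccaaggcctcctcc
Hspb1, chr5:135887782-135887849 (+): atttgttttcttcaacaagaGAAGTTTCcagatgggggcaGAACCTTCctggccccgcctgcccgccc
Dnaja4, chr9:54699449-54699534 (+): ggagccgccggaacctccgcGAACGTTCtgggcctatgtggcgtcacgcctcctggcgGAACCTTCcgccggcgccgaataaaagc
Hspa5, chr2:34772005-34772063 (+): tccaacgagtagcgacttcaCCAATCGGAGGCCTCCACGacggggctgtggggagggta
Hsp90b1, chr10:86705513-86705676 (−): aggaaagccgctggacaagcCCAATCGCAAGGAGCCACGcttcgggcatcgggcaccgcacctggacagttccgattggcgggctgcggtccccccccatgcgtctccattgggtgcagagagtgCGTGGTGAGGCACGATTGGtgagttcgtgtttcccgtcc
Dnajc3, chr14:118937807-118937865 (+): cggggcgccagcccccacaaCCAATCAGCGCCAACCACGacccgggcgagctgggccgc
The stretches of Hspa1a and Hspa1b are identical. These neighbouring genes on chromosome 17 also share most of their transcript, with 60.4% of the 50-base words of Hspa1a and 62.3% of those of Hspa1b found elsewhere among transcripts, so how their reads were divided between them is uncertain.

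Several properties of the libraries bear on the values below. Ncor1 measured 81.6, 118.6, 129.4 and 137.4 TPM in hippocampal controls against 41.9, 44.5 and 61.1 TPM in the NCoR1-KO libraries. Its amygdala values were 71.3, 117.4, 118.6 and 126.5 TPM in controls and 32.1, 34.6 and 39.0 TPM after the knockout. It was lower in all 3 NCoR1-KO libraries of both tissues, by −1.22 and −1.57 on the log2(TPM + 1) scale (two-sided exact permutation test, p = 0.0286 in each, the smallest that 35 arrangements allow). Snap25, whose locus carries the Cre, was at 1825 to 2329 TPM in controls and 1053 to 1699 TPM in knockouts over both tissues. Marker genes separated the tissues, with the summed hippocampal list at 1149 to 1347 TPM in hippocampal controls and 445 to 594 TPM in amygdala controls, but summed choroid plexus markers ran from 39.3 to 11726 TPM among hippocampal libraries. In the amygdala, summed oligodendrocyte markers ran from 2685 to 9512 TPM among controls, from 3935 to 5394 TPM among NCoR1-KO and from 8033 to 12126 TPM among SMRT-KO libraries. Summed striatal markers ran from 365 to 1165, 537 to 975 and 1024 to 1664 TPM in the same order. No marker of these lists was at 0 in all libraries of a group, and their part in the results was not tested. In bulk RNA, fewer cells of a type and less RNA per cell cannot be told apart.

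A further property was the level of long transcripts. The median deviation of the 10% of genes with the longest transcripts from their tissue average (the long-transcript score, in log2 units) was lowest in hippocampal SMRT-KO 3 at −0.27, amygdala NCoR1-KO 1 at −0.21 and hippocampal NCoR1-KO 1 at −0.11. All 3 amygdala NCoR1-KO libraries were negative, at −0.21, −0.05 and −0.04, whereas the 4 controls lay between 0.02 and 0.10 and the SMRT-KO libraries between 0.01 and 0.07. In the amygdala the score thus ran together with NCoR1-KO. A fit there with the score as a covariate cannot tell the score from this genotype.

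The family was abundant and dominated by a few genes. Together the members made up 1.04 to 1.20% of all TPM in hippocampal libraries and 1.00 to 1.19% in the amygdala, and Hspa8, Hsp90ab1 and Hsp90aa1 alone gave 51.1 to 53.7% and 49.8 to 52.7% of that. Hspa8, the constitutive Hsp70, averaged 2721 ± 193 TPM in the hippocampus and 2644 ± 243 TPM in the amygdala (SD over 10 libraries in each). Hsp90ab1, the constitutive cytosolic Hsp90, followed at 1926 ± 85.2 and 1709 ± 96.2 TPM, and its inducible relative Hsp90aa1 at 1199.8 ± 84.6 and 1351 ± 74.1 TPM. The ER chaperones came next, Hsp90b1 at 358 ± 32.6 and 405 ± 27.2 TPM and Hspa5 at 313 ± 70.0 and 338 ± 59.7 TPM, and their ranges over libraries overlap within each tissue. The stress-inducible Hsp70 pair was low, with Hspa1a and Hspa1b summing to 19.7 to 38.0 TPM in the hippocampus and 7.43 to 20.5 TPM in the amygdala. Levels of Hspa8, Hsp90aa1, Hspd1 and Hspb1 are less certain than the rest, since 73.2%, 58.5%, 44.8% and 51.7% of their 50-base words also occur in other transcripts.

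Control 2 stood apart from the other controls in the inducible members, in both tissues, and in some marker lists. It had the highest control value for 11 of the 12 heat-inducible members in each tissue, 10 of them in both, and for 5 of 5 ER stress members in the hippocampus and 4 of 5 in the amygdala. Over all tested genes, control 2 was the highest control for 30.0% in the hippocampus and 23.8% in the amygdala. The median deviation of the 12 inducible members from their tissue average was 0.13 in hippocampal control 2 and −0.19 to −0.08 in the other 3 controls, and 0.12 against −0.18 to −0.05 in the amygdala. It also had the highest summed immediate early genes of the controls, at 814 TPM against 445 to 502 TPM in the hippocampus and 761 TPM against 424 to 608 TPM in the amygdala. Its summed striatal markers in the hippocampus were 438 TPM, against 122 to 158 TPM in the other controls, and its summed oligodendrocyte markers in the amygdala were 2685 TPM, against 4353 to 9512 TPM. The part of these markers in the chaperone values was not tested. The main comparisons of these genes with controls are given with and without that library. It was singled out by its high values of these same genes. Leaving it out therefore raises, by construction, the difference of every gene in which it was the highest control. NCoR1-KO 3 was at least as high in the inducible members, at 0.14 in the hippocampus and 0.17 in the amygdala. Matching values of these genes without it are not given.

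**Figure D1:**
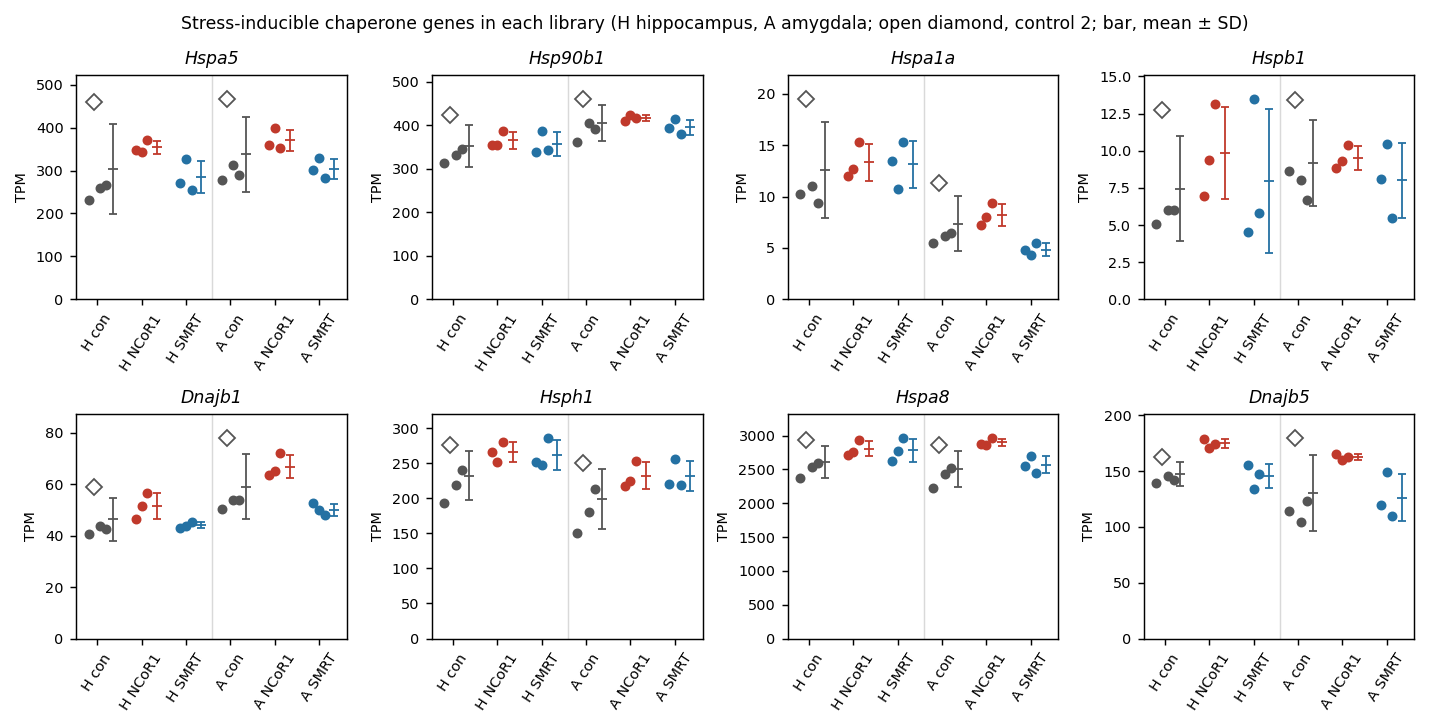
TPM (y axis) of Hspa5, Hsp90b1, Hspa1a, Hspb1, Dnajb1, Hsph1, Hspa8 and Dnajb5 in the 6 groups of tissue and genotype (x axis). Points are libraries, open diamonds are control 2, and bars give the mean and SD of each group (4 control, 3 NCoR1-KO and 3 SMRT-KO libraries). Control 2 is the highest control in every panel, at 460.2 TPM for Hspa5 in the hippocampus and 467.7 TPM in the amygdala.

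Heat-inducible members lay slightly above control in NCoR1-KO libraries of both tissues, but no gene of the list passed the test. In the hippocampus 11 of the 12 had a difference above 0, against 50% of all tested genes (median 0.13 in log2 units, against 0.00). In the amygdala it was 11 of 12, against 41.7% (median 0.11, against −0.03), and the one below was Hspa4l in both. In SMRT-KO the counts were 9 of 12 in the hippocampus, against 44% (median 0.06, against −0.02), and 4 of 12 in the amygdala, against 42% (median −0.05, against −0.03). These comparisons share their controls within a tissue, and same-numbered libraries may come from the same source in both tissues. In amygdala NCoR1-KO the marker lists of non-neuronal cells lay below control, with 8 of 8 microglial (median −0.31), 8 of 8 astrocyte (−0.20), 8 of 8 endothelial (−0.22), 10 of 10 mural and meningeal (−0.21) and 10 of 10 oligodendrocyte markers (−0.24) below 0, of which 1 astrocyte marker was called. Summed microglial markers were at 471 to 509.9 TPM in those libraries and 527 to 664 TPM in controls, and summed astrocyte markers at 3174 to 3258 TPM and 3625 to 4190 TPM, without overlap. Summed neuronal markers were also lower without overlap, at 5368 to 5799 TPM against 5972 to 6764 TPM. That list includes Snap25, whose locus carries the Cre. The part of all these markers in the chaperone values was not tested. Without control 2 the medians were 0.21 for NCoR1-KO in each tissue, and 0.12 and 0.01 for SMRT-KO in hippocampus and amygdala. Control 2 was the highest control for 11 of the 12 genes in each tissue, so these rises follow from leaving it out.

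Dnajb1, the main cytosolic Hsp40 and a classic Hsf1 target, overlapped with control in NCoR1-KO of both tissues. Against control it was called only in amygdala NCoR1-KO, when control 2, its highest control, was left out. That step raises its difference by construction. In the amygdala it measured 50.5, 78.0, 53.8 and 54.0 TPM in controls 1 to 4, 63.5, 65.0 and 72.0 TPM in NCoR1-KO and 52.5, 49.8 and 47.9 TPM in SMRT-KO. All NCoR1-KO libraries were above 3 of the controls and above every SMRT-KO library, and control 2 was above all of them. The difference between NCoR1-KO and control was 0.20 ± 0.13 (SE, log2 units; limma, adjusted p = 0.541) with all libraries and 0.33 (adjusted p = 0.0462) without control 2. In the hippocampus Dnajb1 was at 40.7, 58.8, 43.6 and 42.6 TPM in controls, 46.4, 51.4 and 56.8 TPM in NCoR1-KO and 43.2, 43.8 and 45.3 TPM in SMRT-KO. Again the NCoR1-KO libraries lay between control 2 and the rest, and the difference did not pass (0.16 ± 0.12, adjusted p = 0.998, and 0.27, adjusted p = 0.988, without control 2).

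The inducible Hsp70 genes followed control 2 even more strongly. Hspa1a was at 10.3, 19.5, 11.1 and 9.40 TPM in hippocampal controls, 11.97, 12.7 and 15.3 TPM in NCoR1-KO and 13.5, 10.7 and 15.3 TPM in SMRT-KO. In the amygdala its values were 5.51, 11.3, 6.14 and 6.45 TPM in controls, 7.23, 7.98 and 9.33 TPM in NCoR1-KO and 4.75, 4.27 and 5.49 TPM in SMRT-KO. Amygdala SMRT-KO libraries were thus below every control and NCoR1-KO library, but neither difference passed (−0.47 ± 0.19 against control, adjusted p = 0.192, and 0.65 ± 0.21 for NCoR1-KO minus SMRT-KO, adjusted p = 0.0649). Hspb1, a small heat shock protein, was at 5.05, 12.7, 6.02 and 5.99 TPM in hippocampal controls, 6.97, 9.40 and 13.1 TPM in NCoR1-KO and 4.55, 13.5 and 5.80 TPM in SMRT-KO, so that 1 library in each group stood at about the same high level. These 3 libraries also had the highest summed choroid plexus markers of their groups, at 3363, 11726 and 5860 TPM. Control 1 had nearly the same sum as control 2, at 3314 TPM, but the lowest Hspb1 of the controls, at 5.05 TPM. The part of those markers was not tested. Hsph1, the inducible Hsp110, was at 193, 276, 219 and 241 TPM in hippocampal controls, 265, 251 and 279.9 TPM in NCoR1-KO and 251, 247 and 286 TPM in SMRT-KO. Every knockout library exceeded controls 1, 3 and 4, and the differences were 0.20 ± 0.11 (adjusted p = 0.998) and 0.18 ± 0.11 (adjusted p = 0.789).

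Hspa1b was at 19.0, 15.8 and 21.4 TPM in hippocampal NCoR1-KO and 11.6 to 18.5 TPM in controls, with overlap (0.37 ± 0.21, adjusted p = 0.998). Without control 2 the NCoR1-KO differences, hippocampus then amygdala, were 0.34 and 0.38 for Hspa1a, 0.66 and 0.26 for Hspb1, 0.29 and 0.36 for Hsph1 and 0.16 and 0.28 for Hspa8. None of these passed, the smallest adjusted p being 0.0707 for Hspa8 in the amygdala. In SMRT-KO without control 2, the differences were 0.32 and −0.27 for Hspa1a, 0.29 and 0.01 for Hspb1, 0.27 and 0.36 for Hsph1, and 0.06 and −0.07 for Dnajb1. None of these passed either, the smallest adjusted p being 0.167 for Hsph1 in the amygdala.

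Hspa8, most abundant of all, had little room between groups. Its amygdala values were 2226, 2855, 2430 and 2525 TPM in controls, 2871, 2863 and 2965 TPM in NCoR1-KO and 2556, 2698 and 2445 TPM in SMRT-KO. NCoR1-KO libraries were above every control, control 2 included, yet by only 0.21 ± 0.08, which did not pass (adjusted p = 0.266). Among the remaining inducible members, Hsp90aa1, Dnaja1, Hspd1 and Hspe1 differed from control by 0.04 to 0.13 in NCoR1-KO over both tissues, none past the test.

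Immediate early genes, markers of recent neuronal activity, lay on the same side of control as the inducible members in NCoR1-KO and on the opposite side in hippocampal SMRT-KO. All 12 of the list had a difference above 0 in NCoR1-KO in each tissue (medians 0.35 and 0.42), 0 of 12 in hippocampal SMRT-KO (median −0.25) and 6 of 12 in amygdala SMRT-KO, and 0 passed the test. Their summed level spanned 445 to 814 TPM among hippocampal controls, 625 to 812 TPM among NCoR1-KO and 405 to 561 TPM among SMRT-KO libraries, and in the amygdala 424 to 761, 599 to 859 and 459 to 924 TPM. Their part in the chaperone values was not tested.

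ER chaperones gave the same picture of one high control. Hspa5, the ER Hsp70 (BiP), was at 232, 460.2, 260.2 and 266 TPM in hippocampal controls, 347, 344 and 371 TPM in NCoR1-KO and 272, 326 and 255 TPM in SMRT-KO. In the amygdala it was at 278, 468, 314 and 290.3 TPM in controls, 359, 399 and 354 TPM in NCoR1-KO and 300.3, 329.9 and 284 TPM in SMRT-KO. In both tissues the 3 NCoR1-KO libraries exceeded all SMRT-KO libraries and all controls but control 2. Same-numbered libraries may come from the same source in both tissues, so the tissues are not taken as independent. The differences from control were 0.27 ± 0.20 (adjusted p = 0.998) and 0.16 ± 0.15 (adjusted p = 0.676), and 0.49 (adjusted p = 0.725) and 0.33 (adjusted p = 0.0609) without control 2. In SMRT-KO they were −0.05 and −0.12 with control 2 and 0.17 and 0.05 without it (adjusted p = 0.918 and 0.766), so the sign turned in each tissue. Control 2 was the highest control for Hspa5 in both tissues, so leaving it out could only raise these differences. With all libraries its partners Hsp90b1, Dnajb9, Dnajb11 and Dnajc3 differed from control by −0.13 to 0.07 in NCoR1-KO over both tissues. Without control 2, Hsp90b1 differed by 0.15 and 0.11 in hippocampus and amygdala, and neither passed. Over the 5 ER stress members the medians were 0.06 and 0.03 in NCoR1-KO and 0.02 and −0.03 in SMRT-KO, for hippocampus and amygdala. Without control 2 they were 0.13 and 0.08 in NCoR1-KO and 0.10 and 0.05 in SMRT-KO.

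**Figure D2:**
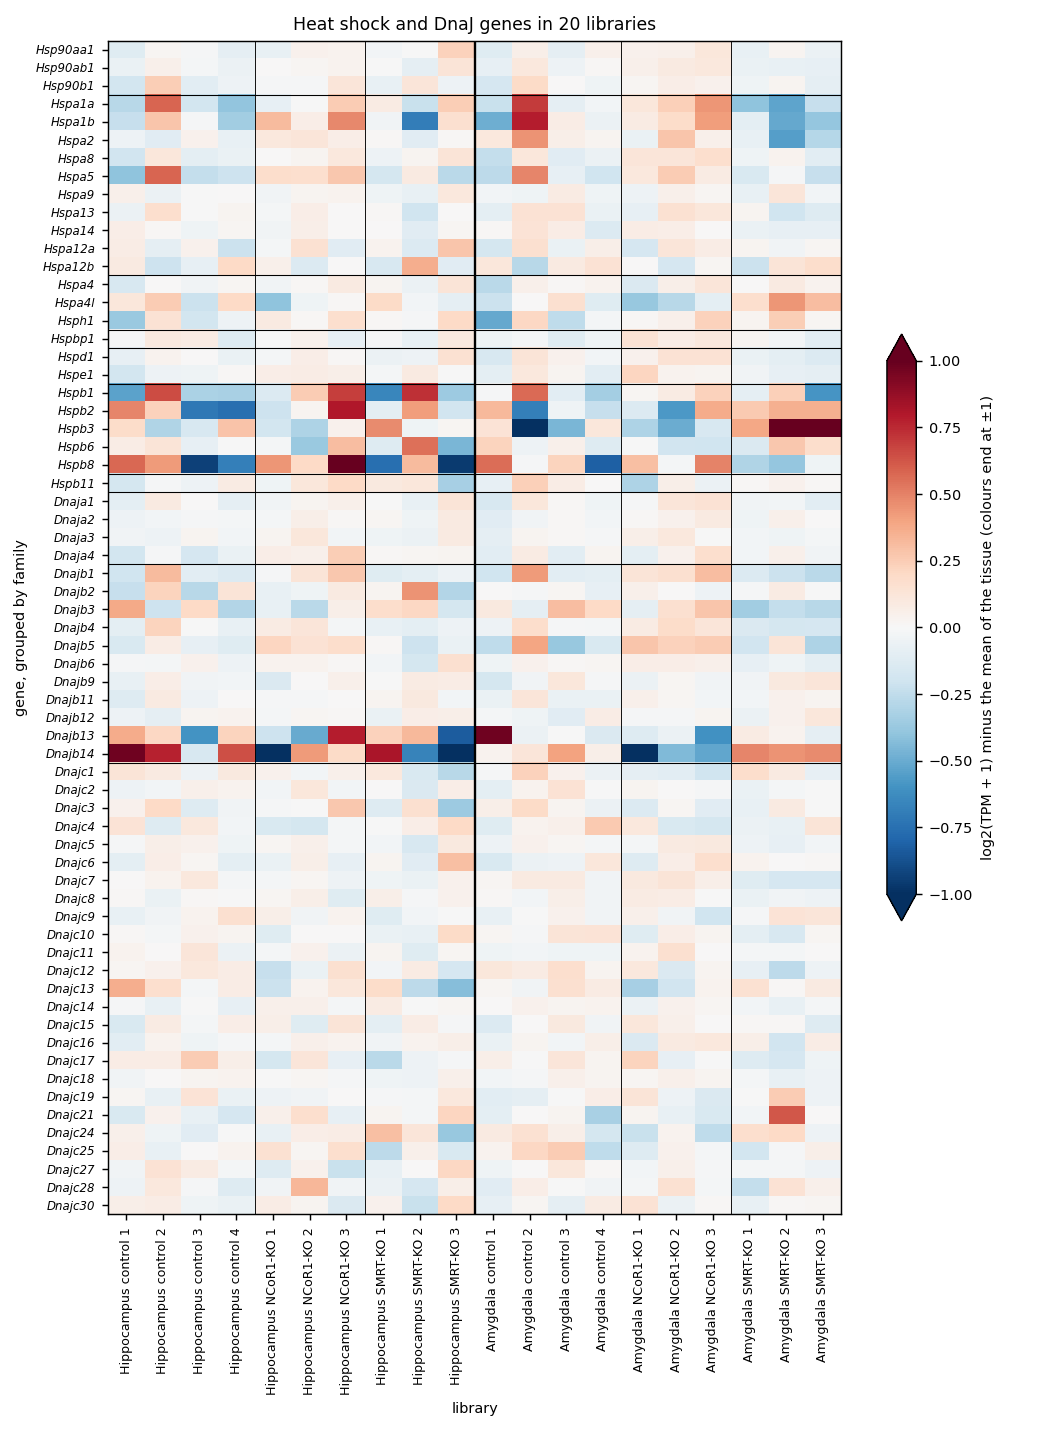
Heat map of 65 members (rows, by family) in 20 libraries (columns, by tissue and genotype), as log2(TPM + 1) minus the mean of the tissue, with the colour scale running from −1 to 1. Among the controls of each tissue, control 2 stands out as high in the inducible and ER genes. NCoR1-KO 3 is at least as high in the inducible ones (median deviation 0.14 in hippocampus and 0.17 in amygdala, against 0.13 and 0.12 in control 2). Dnajb14 varies most between hippocampal libraries (pooled SD 0.90).

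Dnajb14 was the only member called between a knockout and its controls, and it was lower in amygdala NCoR1-KO. Dnajb14 (chr3:137867675-137916557, mm10, plus strand) encodes a membrane-anchored ER DnaJ protein. Amygdala controls measured 31.8, 33.8, 41.2 and 32.3 TPM, NCoR1-KO 14.3, 22.6 and 21.4 TPM and SMRT-KO 44.0, 42.6 and 43.4 TPM. The 3 groups did not overlap. Dnajb14 fell by 0.83 ± 0.14 on the log2(TPM + 1) scale (limma, adjusted p = 0.0365), from 34.8 ± 4.38 to 19.4 ± 4.51 TPM (SD, n = 4 and 3). That made 1 of 64 members called (1.56%), against 0.411% of all 14606 tested genes, where 58 of the 60 called genes were lower. With only 1 member called, the share says little about the family.

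This call was not stable. It was lost with no filter on low values, with no variance trend, with a replicate block, with only the 2 groups in the fit, and without any 1 of controls 1 and 3 or of the knockout libraries of either genotype. Its hippocampal values also ranged widely inside each group, at 52.5, 45.6, 23.5 and 41.7 TPM in controls, 9.44, 35.6 and 30.1 TPM in NCoR1-KO and 47.1, 16.2 and 8.01 TPM in SMRT-KO. The lowest were SMRT-KO 3 and NCoR1-KO 1, which also had the lowest long-transcript scores of that tissue. The transcript of Dnajb14 is 9477 bases long, and the same scores moved with it in the amygdala. With the score as a covariate, an alternative chosen after seeing the data, the amygdala difference was −0.33 (adjusted p = 0.696), and 0 of all tested genes were called in that comparison. Score and NCoR1-KO ran together in the amygdala, so this fit cannot tell them apart and the loss of the call does not show its source.

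A pair of other long members followed a similar order of libraries. Hspa4l, an Hsp110 with a transcript of 9479 bases (chr3:40744495-40796103, plus strand), was at 67.4, 78.7, 87.5 and 72.1 TPM in amygdala controls, 60.0, 64.5 and 73.3 TPM in NCoR1-KO and 88.4, 106.6 and 97.6 TPM in SMRT-KO. NCoR1-KO overlapped with control and SMRT-KO lay above every other library. Dnajc13, an endosomal DnaJ protein with a transcript of 8012 bases (chr9:104151282-104262930, minus strand), was at 35.7, 34.5, 39.6 and 37.3 TPM in amygdala controls, 27.8, 30.7 and 36.1 TPM in NCoR1-KO and 39.4, 35.6 and 37.6 TPM in SMRT-KO. Its difference of −0.22 ± 0.08 in NCoR1-KO did not pass (adjusted p = 0.302) and was 0.02 with the score as a covariate. Of the 12 members with transcripts of at least 5000 bases, 7 had a difference above 0 in amygdala NCoR1-KO. Their median was 0.01, against 0.05 for the 52 shorter ones. The score was built from longer genes, of at least 6755 bases in the amygdala. Only Dnajb14, Hspa4l and Dnajc13 exceed that length among the members, and all lay below 0 in amygdala NCoR1-KO against control. In amygdala SMRT-KO Hspa4l lay above every control. The scores of those SMRT-KO libraries, at 0.01 to 0.07, overlapped with the control scores, at 0.02 to 0.10. The part of transcript length was not tested.

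**Figure D3:**
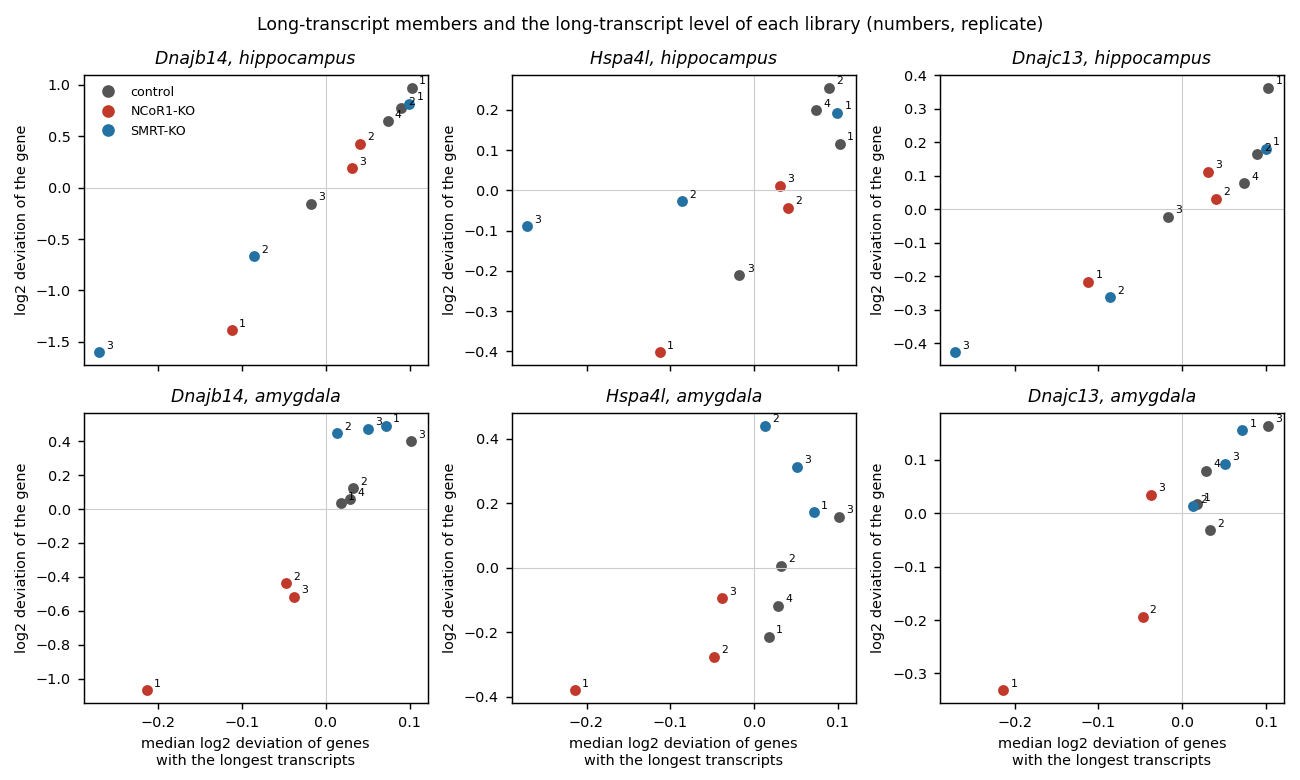
Deviation of Dnajb14, Hspa4l and Dnajc13 from their tissue average (y axis, log2 units) against the long-transcript score of each library (x axis, log2 units), for hippocampus and amygdala, coloured by genotype. Hippocampal SMRT-KO 3, at a score of −0.27, and amygdala NCoR1-KO 1, at −0.21, hold the lowest scores and low values of Dnajb14 (8.01 and 14.3 TPM).

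The rest of the family in amygdala NCoR1-KO shifted little. Differences were above 0 for 44 of 64 members (68.8%), against 41.7% of all tested genes, with a median of 0.04 against −0.03. Libraries did not overlap for 7 members (10.9%, against 12.1% of all tested genes), 5 of them higher (7.81%, against 3.68%). Hspbp1, an Hsp70 nucleotide exchange factor, was next after Dnajb14: it averaged 65.5 ± 1.97 TPM in controls and 73.4 ± 1.81 TPM in NCoR1-KO, a difference of 0.16 ± 0.05 that did not pass (adjusted p = 0.181). Dnajc11, a DnaJ protein of the mitochondrial membrane system, differed by 0.11 (adjusted p = 0.372).

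In amygdala SMRT-KO no member passed the test (0 of 64), against 0.11% of tested genes; 10 had an unadjusted p under 0.05 (15.6%, against 22%). Closest was Dnajc7, a cochaperone with tetratricopeptide repeats that links Hsp70 and Hsp90. It measured 185, 195, 195 and 179 TPM in controls, 196, 199.5 and 191 TPM in NCoR1-KO and 168, 162 and 163 TPM in SMRT-KO. SMRT-KO libraries were below every other library, by a small step (−0.19 ± 0.04 from control, adjusted p = 0.0617). Exons of Dnajc7 overlap those of Cnp and Nkiras2 on the opposite strand, and the libraries were made with a stranded kit. Cnp is one of the oligodendrocyte markers, whose sum was high in SMRT-KO, where Dnajc7 was low. The part of this overlap was not tested.

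Hspb3, a small heat shock protein known from muscle, had the largest difference. Its amygdala values were 4.08, 0.66, 2.37 and 3.99 TPM in controls, 2.74, 2.27 and 3.13 TPM in NCoR1-KO and 5.04, 9.64 and 8.67 TPM in SMRT-KO. All SMRT-KO libraries were highest, at levels still low for this family (1.31 ± 0.35, adjusted p = 0.0825). Hspa2, an Hsp70 best known from testis and also found in brain, was at 77.9, 99.1, 75.4 and 73.7 TPM in controls and 68.6, 49.1 and 59.3 TPM in SMRT-KO, without overlap (−0.46 ± 0.13, adjusted p = 0.0916). Hspa4l (0.35 ± 0.10, adjusted p = 0.0916) and Dnajb3 (−0.42 ± 0.12, adjusted p = 0.0964) also fell short. Summed oligodendrocyte and striatal markers were higher in these SMRT-KO libraries, as given above, and their part was not tested. Over the 64 members the median was −0.02, against −0.03 over all tested genes.

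The sharpest contrast in the family was between the knockouts in the amygdala, where 4 of 64 members were called (6.25%), against 11.5% of all tested genes, so the share was no larger than the background. Dnajb14 was lower in NCoR1-KO than in SMRT-KO by −1.14 ± 0.15 (limma, adjusted p = 0.00324), and Hspa4l by −0.56 ± 0.11 (adjusted p = 0.0131). Both are the long transcripts described above. Dnajc7 was higher in NCoR1-KO by 0.25 ± 0.05 (adjusted p = 0.0138). Dnajb4, a cytosolic relative of Dnajb1, was higher by 0.29 ± 0.06 (adjusted p = 0.0201). It measured 93.5, 100.5 and 95.9 TPM in NCoR1-KO and 79.8, 78.0 and 78.3 TPM in SMRT-KO, with 3 controls between them, at 84.9, 87.6 and 87.1 TPM, and control 2 at 99.9 TPM inside the NCoR1-KO range. For all 4 genes the knockout groups did not overlap.

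More members leaned the same way without being called. Differences were above 0 for 44 of 64 members (68.8%, against 49.9% of all tested genes; medians 0.05 and 0.00), and libraries did not overlap for 27 members (42.2%, against 38.4%). Of those 27, NCoR1-KO was higher for 23 (35.9%, against 18.8%) and lower for 4 (6.25%, against 19.6%). In the same comparison 8 of 8 microglial markers were below 0 and 7 were called (median −0.38), as were 10 of 10 mural and meningeal markers (2 called, median −0.22), 7 of 8 endothelial markers (1 called, median −0.32) and 10 of 10 oligodendrocyte markers (2 called, median −1.10). Summed neuronal markers overlapped, at 5368 to 5799 TPM in NCoR1-KO and 5305 to 5609 TPM in SMRT-KO. The part of these markers in the chaperone differences was not tested. Of the 12 heat-inducible members 11 were above 0 with a median of 0.17, and Hspa4l was the one below. Nearest to the threshold were Dnajb6, a suppressor of protein aggregation (0.13, adjusted p = 0.0533), Hspb3 (−1.21, adjusted p = 0.0603), Hspa1a, Hspd1 (0.21, adjusted p = 0.0667) and Dnajb1 (0.41 ± 0.13, adjusted p = 0.0705). The count of 4 fell to 1, Dnajb14, without NCoR1-KO 2, SMRT-KO 2 or SMRT-KO 3, rose to 12 without control 2, and was 0 with the long-transcript score as a covariate. That score cannot be told apart from NCoR1-KO in this tissue.

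**Figure D4:**
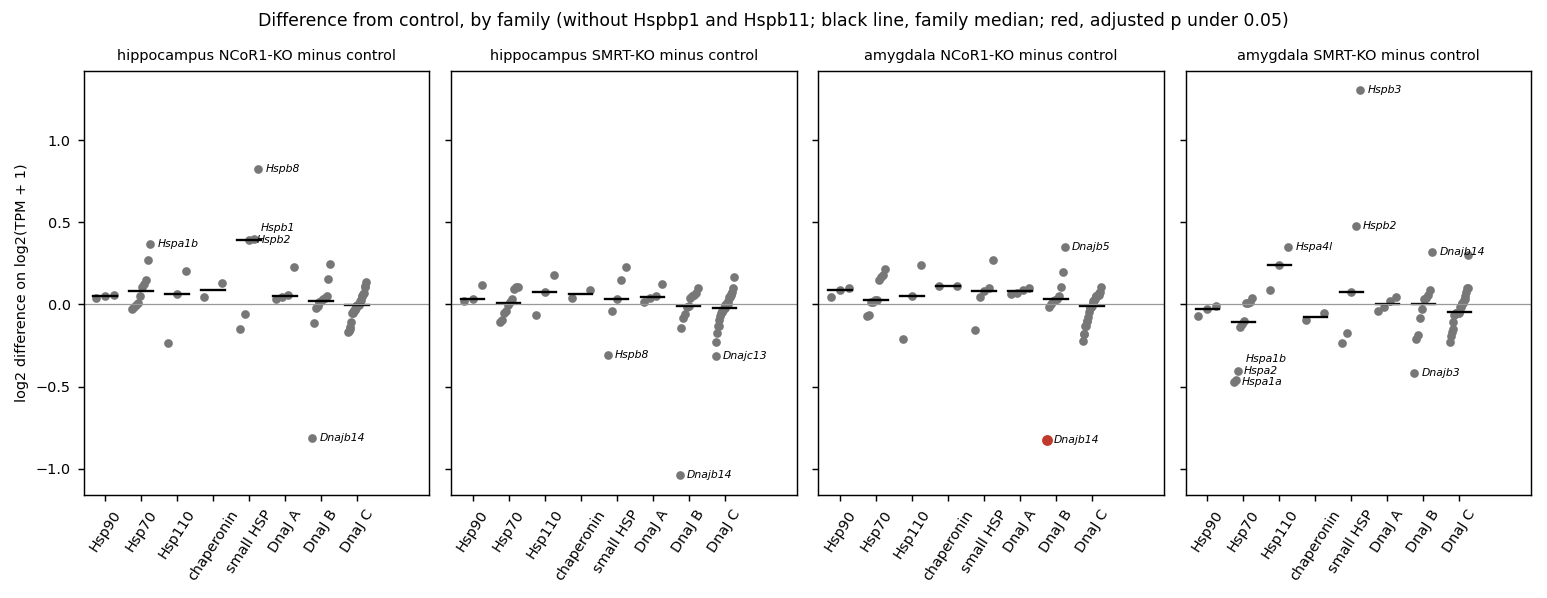
Log2(TPM + 1) difference from control (y axis) of 63 members (Dnajb13 in the hippocampal panels only), by family (x axis), in 4 panels for NCoR1-KO and SMRT-KO in each tissue. Points are genes, black lines are family medians and red marks a called gene; Dnajb14 in amygdala NCoR1-KO is the one red point, at −0.83.

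Hippocampal comparisons called no member and no gene at all (0 of 65 members and 0% of 14501 tested genes in each of NCoR1-KO against control, SMRT-KO against control and NCoR1-KO against SMRT-KO). At an unadjusted p under 0.05 the counts were 4 members (6.15%, against 4.54%), 1 (1.54%, against 5.61%) and 3 (4.62%, against 6.59%). For NCoR1-KO the 4 were Dnajb5, Dnaja4, Hspa2 and Hspe1, and all NCoR1-KO libraries of these genes were above every control. Non-overlapping libraries were found for 4 members in that comparison (6.15%, against 8.09%).

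Dnajb5, a brain-expressed Hsp40 related to Dnajb1, was at 139, 163, 145 and 142 TPM in hippocampal controls, 179, 171 and 174 TPM in NCoR1-KO and 155, 134 and 147 TPM in SMRT-KO. NCoR1-KO stood above both other groups without overlap (0.25 ± 0.07 over control and 0.27 ± 0.07 over SMRT-KO; unadjusted p = 0.00433 and 0.00422, adjusted p = 0.998 and 0.704). In the amygdala its NCoR1-KO values were 166, 160.2 and 163 TPM, above 3 controls at 114, 105 and 123 TPM and below control 2 at 179.7 TPM. Dnaja4, a DnaJ of type A induced by stress, was at 47.0, 53.1, 47.5 and 50.9 TPM in hippocampal controls, 56.0, 55.3 and 63.4 TPM in NCoR1-KO and 54.0, 54.2 and 54.5 TPM in SMRT-KO. Both knockouts were above all controls, and neither difference passed (0.23 ± 0.06 and 0.13 ± 0.06, adjusted p = 0.998 and 0.779). Hspa2 differed by 0.15 ± 0.05 and Hspe1 by 0.13 ± 0.05 in NCoR1-KO (adjusted p = 0.998 for both).

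In hippocampal SMRT-KO the single member with an unadjusted p under 0.05 was Dnajc17, a nuclear DnaJ protein. It was at 18.4, 18.4, 20.9 and 18.2 TPM in controls and 14.2, 16.7 and 17.3 TPM in SMRT-KO, without overlap (−0.23 ± 0.10, adjusted p = 0.779). Member medians were 0.03 in NCoR1-KO and 0.00 in SMRT-KO, against 0.00 and −0.02 over all tested genes.

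Members with set roles in neurons stayed near control. Dnajc5 (cysteine string protein of synaptic vesicles) averaged 244 ± 7.78, 245 ± 6.44 and 238 ± 21.3 TPM in hippocampal control, NCoR1-KO and SMRT-KO, and 281 ± 8.41, 293 ± 12.7 and 271 ± 4.87 TPM in the amygdala. Dnajc6 (auxilin, the clathrin uncoating partner of Hspa8) averaged 245 ± 14.2, 244 ± 13.2 and 264 ± 39.4 TPM, and 234 ± 18.5, 247 ± 25.9 and 243 ± 3.01 TPM. Dnajb2, a neuronal DnaJ that sorts clients for degradation, averaged 55.0 ± 9.76, 55.6 ± 3.42 and 59.6 ± 15.7 TPM, and 61.7 ± 1.87, 62.7 ± 2.30 and 63.5 ± 2.26 TPM. For each of these genes the knockout groups overlapped with control in both tissues, and the differences lay between −0.05 and 0.10. Hspa9, the mitochondrial Hsp70, differed from control by 0.02 or less in the 4 comparisons, and Hsp90ab1 by −0.07 to 0.09.

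More members were called between control tissues than in any comparison of genotypes. Of 64 members 17 were called (26.6%), against 32.5% of 14210 tested genes, 9 higher in the hippocampus (14.1%, against 13.2%) and 8 lower (12.5%, against 19.3%). The tissues come from separately made tables, and libraries were treated as unpaired. Hspa1b was the largest: hippocampal controls were at 12.7, 18.5, 14.9 and 11.6 TPM and amygdala controls at 3.21, 9.19, 5.23 and 4.68 TPM, without overlap (1.28 ± 0.23, limma, adjusted p = 0.000323). Hspa1a was higher by 0.69 ± 0.21 (adjusted p = 0.0152), but control 2 of the amygdala reached the hippocampal range, and the call was lost without hippocampal control 2 (adjusted p = 0.0520) or amygdala control 1 (adjusted p = 0.0523). The division of reads between these 2 genes is uncertain, as said above.

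Other members higher in hippocampal controls covered several roles. Dnajc21, a ribosome assembly factor, was at 34.1, 39.1, 36.0 and 33.6 TPM against 23.4, 25.3, 25.7 and 19.9 TPM (0.58 ± 0.12, adjusted p = 0.00109). Dnaja4 was at 47.0 to 53.1 TPM against 35.8 to 40.9 TPM (0.38 ± 0.06, adjusted p = 0.000185). Hspa12a, an atypical Hsp70, was higher by 0.29 ± 0.09 (adjusted p = 0.0261), a call lost without controls 1 or 3 of either tissue. Dnajc1 (0.24), Hspa9 (0.18), Dnajb12 (0.17) and Hsp90ab1 (0.16) completed the 9.

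Members lower in the hippocampus than in the amygdala were led by DnaJ genes. Dnajb1 was at 40.7 to 58.8 TPM against 50.5 to 78.0 TPM (−0.33 ± 0.12, adjusted p = 0.0422), with overlap through control 2, and the call was not stable. It was lost with no filter (adjusted p = 0.0560), without amygdala control 2 (−0.20, adjusted p = 0.152), without hippocampal control 1, 3 or 4 (adjusted p = 0.124, 0.0944 and 0.109), and by a narrow margin without NCoR1-KO 2 of either tissue or amygdala SMRT-KO 3. Dnajc10, an ER disulfide reductase, was at 61.1, 59.5, 62.2 and 61.8 TPM against 74.0, 72.6, 79.9 and 80.2 TPM (−0.32 ± 0.06, adjusted p = 0.000812). Dnajc2, which acts at the ribosome, averaged 41.3 ± 1.44 against 51.2 ± 3.67 TPM (−0.30 ± 0.06, adjusted p = 0.000469). Dnajb4 (−0.29), Dnajc27 (−0.25), Dnajc5 (−0.20), Hsp90aa1 (−0.20) and Dnajc8 (−0.18) were the others. The cytosolic Hsp90 pair thus had Hsp90ab1 higher and Hsp90aa1 lower in the hippocampus, but leaving out any 1 of the 8 control libraries lost one of these calls. Hsp90ab1 was not called without hippocampal control 2 or 3, without amygdala control 1 or 3, or with no filter, and Hsp90aa1 was not called without control 4 of either tissue, hippocampal control 1 or amygdala control 2. Quantile normalization lost both. Of the 17, Dnaja4, Dnajb4, Dnajc2, Dnajc5, Dnajc8, Dnajc10, Dnajc21, Dnajc27, Hspa1b and Hspa9 were called under every alternative that was run.

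**Figure D5:**
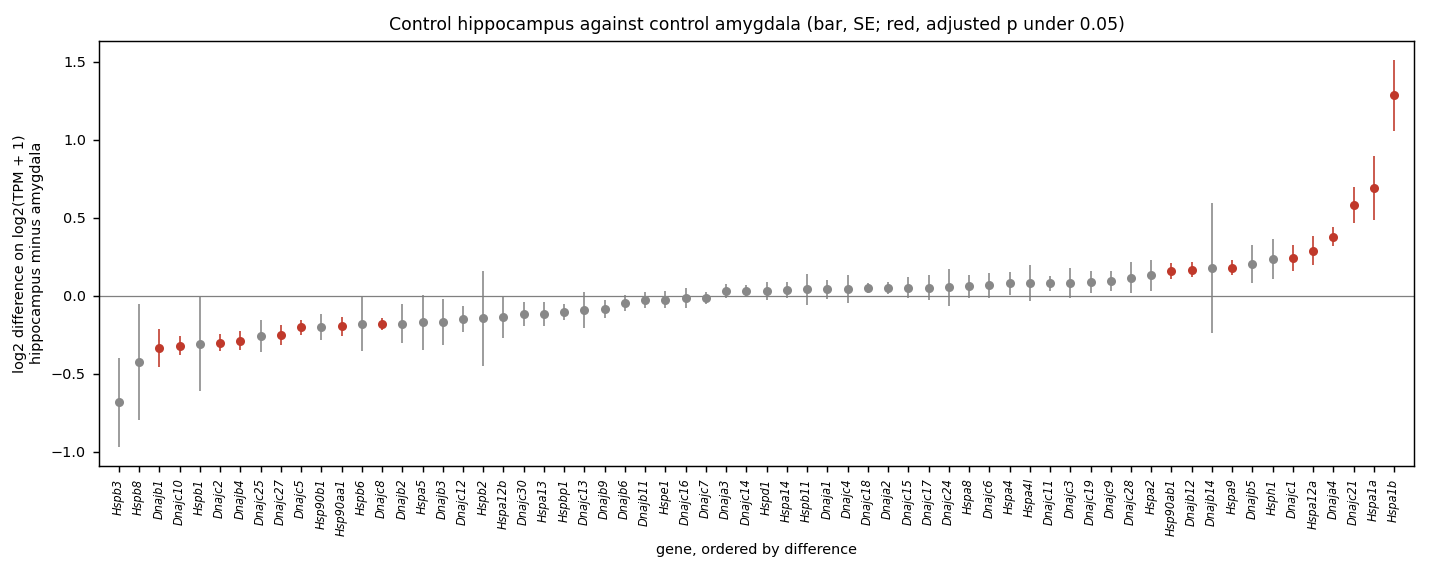
Control hippocampus minus control amygdala (log2(TPM + 1) difference, 4 libraries per tissue) of 64 members in order of size. Bars give the SE and red marks the 17 called members, from Hspa1b at 1.28 to Dnajb1 at −0.33.

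The effect of a knockout was not shown to differ between tissues for any member. Tested as the difference of the differences, 0 of 64 members and 0% of 14210 genes passed for NCoR1-KO and the same for SMRT-KO. At an unadjusted p under 0.05 there were 1 member for NCoR1-KO, Hspbp1 (−0.19, adjusted p = 0.998; 3.67% of all genes), and 6 for SMRT-KO (8.85% of all genes). Those 6 were Hspa2 (0.48, adjusted p = 0.395), Hspb3 (−1.16, adjusted p = 0.460), Dnajb14 (−1.36), Hspa4l, Dnajc7 and Dnajc14.

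Genes that work with these chaperones were read from 8 lists. In every knockout comparison with control, in both tissues, 0 genes of the 8 lists were called. Between NCoR1-KO and SMRT-KO in the amygdala, 2 of 5 heat shock factor genes were called higher in NCoR1-KO (list median 0.26, against 0.00 over all tested genes). Of the 5, 4 were above 0 and 1 was below, at −0.57 (limma, unadjusted p under 0.05, not called). Hsf1, the master regulator, was at 25.3, 30.9, 24.0 and 28.2 TPM in controls, 32.1, 33.5 and 32.2 TPM in NCoR1-KO and 23.8, 28.0 and 24.1 TPM in SMRT-KO. NCoR1-KO libraries were above all others for this gene, and it was called against SMRT-KO (0.36 ± 0.09, adjusted p = 0.0379) but not against control (0.26 ± 0.09, adjusted p = 0.232). Hsbp1, a small Hsf1-binding protein, was higher by 0.26 (adjusted p = 0.0459).

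The same comparison called 2 of 15 Hsp70 partners, Bag2 (0.34, adjusted p = 0.0185) and Bag6 (0.16, adjusted p = 0.0490), and 2 of 19 Hsp90 cochaperones, Unc45a (0.31, adjusted p = 0.0160) and Fkbp8 (0.19, adjusted p = 0.0341), all higher in NCoR1-KO. In the cytosolic chaperonin and prefoldin list Cct7 was higher (0.18, adjusted p = 0.0273) and Pdcl lower (−0.27, adjusted p = 0.0375), of 15. Of 19 ER folding and unfolded protein response genes 1 was called, the sensor Atf6, lower in NCoR1-KO (−0.47, adjusted p = 0.0215). In the list of other acute stress genes, those called higher included Ddit4 (0.57), Gadd45g (0.59) and Per1 (0.47), and 2 were lower, Ier5 (−0.74) and the small heat shock gene Cryab (−0.67), which oligodendrocytes express strongly. The mitochondrial import list had 1 of 13 higher, Timm44 (0.20), and the clathrin uncoating list had Ap2a1 higher (0.24) and Picalm lower (−0.19) of 12. Over all tested genes 5.03% were called higher and 6.46% lower in this comparison. Its 1679 called genes became 2 with the long-transcript score as a covariate and 246 to 2218 with 1 library left out. The list genes were not followed one by one under these alternatives.

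Most members varied little inside groups. The median within-group SD was 0.10 log2 units in each tissue, against 0.14 and 0.12 over all tested genes. The widest were Dnajb14 (0.90), Hspb8 (0.70), Dnajb13 (0.57) and Hspb1 (0.57) in the hippocampus, and Hspb3 (0.55), Hspb8 (0.42), Hspa1b (0.38) and Hspb2 (0.37) in the amygdala. Hspb8, a small heat shock protein of autophagy, was at 16.2, 14.5, 5.04 and 6.18 TPM in hippocampal controls, 14.7, 12.3 and 28.7 TPM in NCoR1-KO and 5.84, 13.4 and 4.95 TPM in SMRT-KO. Summed choroid plexus markers of the same libraries were at 3314, 3363, 39.3 and 626 TPM, 2183, 68.8 and 11726 TPM, and 60.3, 5860 and 86.6 TPM, so the highest Hspb8 value and the highest marker sum fell in the same library, NCoR1-KO 3. Their part in the Hspb8 values was not tested. Its groups overlapped throughout, and its difference of 1.13 ± 0.49 between the knockouts did not pass (adjusted p = 0.754). A TPM table carries no read counts, so the depth behind each of these values is unknown.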

How the data were processed

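RNA was extracted with a lipid-tissue kit and libraries were made with a stranded mRNA kit, per the labels' protocols. The authors deposited 1 gene table of TPM values for each tissue, made with bcl2fastq, fastp 0.21.0, STAR 2.5.3a, RSEM 1.3.3 and mm10, per the submitters' processing notes; no source used here names the annotation. TPM sums to about the same total in each library, depth is unknown, and 0 columns belonged to other samples. Genes with at least 1 TPM in at least 3 of the 10 libraries of a tissue were tested on log2(TPM + 1) with limma 3.58.1 (R 4.3.3), with a variance trend and all 3 genotypes in 1 fit (6 groups for comparisons between tissues). P-values were adjusted by Benjamini-Hochberg over all tested genes, with a threshold of 0.05. Log2 differences understate changes of low genes. The method was checked on simulated data. Gene positions and lengths come from GENCODE on mm10, and promoters from RefSeq.

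The members and lists were chosen with earlier results of these data known. Named were called members, up to 3 higher and 3 lower members of smallest p per knockout comparison, a set list of inducible, ER and neuronal members, the most abundant and most variable ones, those nearest the level rule, the 5 largest called differences in each direction between tissues, and called list genes. Alternatives were another pseudocount, other filters, no variance trend, library weights, quantile normalization, a total without Rn45s, only the groups compared, a replicate block and leaving out each library. Those chosen after seeing the data were the long-transcript score as a covariate, leaving out control 2 of both tissues, and leaving out hippocampal NCoR1-KO 1 and SMRT-KO 3. The targeted gene of SMRT-KO and 1 gene of the acute stress list are not reported here.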

Additional observations from a re-analysis of the deposited data

Results flagged for a closer look

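In groups of 4 controls, 1 library stood far from the other 3 by Dixon's gap criterion for 5 of 65 members in the hippocampus and 8 of 65 in the amygdala. The criterion is passed in about 1 of 20 groups of independent, normally distributed values. Members vary together between libraries, and the share over all tested genes was not computed. The counts are therefore not set against chance. Control 2 was the high library in 8 of these 13 cases. In the hippocampus these were Hspa5 (460.16 TPM), Dnajb1 (58.76), Hspa1a (19.54) and Hspb1 (12.73 TPM). In the amygdala they were Hspa2 (99.11 TPM), Dnajb11 (93.04), Dnajb1 (78 TPM) and Hspa1a (11.32 TPM). Other libraries stood apart for Dnajc17 (hippocampal control 3, high at 20.94 TPM), Hspa9 (amygdala control 3, high at 196.11 TPM), Hspa4 (amygdala control 1, low at 145 TPM), Dnajb13 (amygdala control 1, high at 2.27 TPM) and Hspa12b (amygdala control 2, low at 4.92 TPM).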

How the results depend on the processing

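For amygdala NCoR1-KO against control, the count of called members was 1 and became 0 with no filter, no variance trend, a replicate block, only the 2 groups compared, or the long-transcript score as a covariate; leaving out 1 library gave 0 to 2 (Dnajb1 joined Dnajb14 without control 2). Behind that count lay 60 called genes, which became 16, 17, 41, 4 and 0 under those settings and 0 to 126 with 1 library left out. For amygdala SMRT-KO against control the count was 0, became 6 with library weights (16 genes became 1546), and was 0 to 3 with 1 library left out, the 3 (Dnajc7, Hspa2 and Hspb3) without SMRT-KO 1, where 697 genes were called. For amygdala NCoR1-KO against SMRT-KO, 4 became 26 with library weights (1679 genes became 5047), 11 with only the 2 groups (2083 genes), 0 with the covariate (2 genes) and 1 to 12 with 1 library left out (246 to 2218 genes). There Dnajb14 was −0.65 (adjusted p = 0.0552) with the covariate. In the amygdala the covariate and NCoR1-KO cannot be told apart, as said above. The 17 calls between control tissues were 13 to 18 with 1 library left out, 19 with library weights and 19 without control 2 of both tissues, 16 of them among the 17. Member medians moved by more than their spread over libraries in 3 cases: hippocampal NCoR1-KO minus SMRT-KO without NCoR1-KO 1 and SMRT-KO 3 (0.0692), the amygdala contrast of the knockouts with the covariate (0.0981), and the control tissues, which ran from −0.00619 (without amygdala control 1) to 0.0410 (without amygdala control 3). Direction turned for Dnajc1 in hippocampal SMRT-KO with library weights (0.0156) and for Dnajc13 in amygdala NCoR1-KO with the covariate (0.0157). The cause of these changes was not tested, beyond the smaller number of libraries or genes that an alternative leaves. Of the values for single members, 987 kept direction and side of the threshold, 40 lost the call, 15 gained one and 2 turned. Replicate numbers were not taken to pair the libraries, since not every pair correlated over 0.1: within tissues deviations of same-numbered libraries correlated at −0.49 to 0.50 (over 0.1 for 2 of 9 pairs in each), and between tissues at 0.00 to 0.48 (8 of 10 over 0.1, 8 of 10 best with their own number), a hint from the data that a number may mark the same source in both tissues. The replicate block gave 0, 4 and 21 calls for amygdala NCoR1-KO against control, NCoR1-KO against SMRT-KO and control tissues, the 4 added in the last being Hsp90b1, Hspa5, Hspb3 and Hsph1.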
